A study of Drosophila melanogaster with 9 samples.

Results

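The salivary gland glue genes of Drosophila are described here in wandering larvae of the third instar with different copy numbers of Atg6. They are Sgs1, Sgs3, Sgs4, Sgs5, CG7587 (current symbol Sgs5bis), Sgs7, Sgs8 and Eig71Ee, chosen by name, and they make up 8 of the 15809 loci in the deposited table of FPKM (sequenced fragments scaled by transcript length and library size). The larval salivary gland makes glue in the last larval stage, when the steroid hormone ecdysone turns the glue genes on. The proteins are packed into large secretory granules, released into the gland lumen before pupariation and expelled to fix the animal to a surface. The glue genes are later switched off as the hormone pulse that starts metamorphosis rises, so their RNA level marks a window of the wandering stage.

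RNA came from whole larvae with the w118 genetic background, grown on standard food at 25C. The 3 groups were Atg6 wild type (w118), Atg6-/+ (Atg6D/+, heterozygote) and Atg6-/- (Atg6D/Atg6D, homozygote), with 3 strand-specific Illumina libraries each. Atg6, the fly Beclin, works in a lipid kinase complex needed to start autophagy and for endosome traffic. The labels give neither hours of age nor sex, do not say how many larvae entered a library, and do not say that repeats were separate cultures, so the p-values below cover the spread among these libraries, which may be technical. In RNA of whole larvae, fewer gland cells and less glue RNA per cell cannot be told apart. Nor can the Atg6 genotype and other variants that the mutant stock may carry.

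Atg6 itself was at 14.3 to 17.0 FPKM in wild type larvae, 7.58 to 8.89 in heterozygotes and 0 to 0.0563 in homozygotes, in the order of the labels. Depth relative to wild type 1 was not measured but estimated from FPKM ratios at loci that were at 0 in several libraries. The estimates were 0.787 to 1.28 in the other 8 libraries, from 57 to 132 loci each, while absolute depth is unknown from FPKM. Correlations between libraries over the 10887 tested loci were 0.849 to 0.990 on the log2 scale. Homozygote 1 stood apart for the glue genes, and results that rest on it are given with and without it. Fold changes are on the log2(FPKM + 1) scale, which understates changes of weakly expressed genes.

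The 8 genes fall into mucin-like proteins with long threonine- and proline-rich repeats that carry sugar chains (Sgs1, Sgs3, Sgs4 and Eig71Ee) and short secreted proteins without such repeats (Sgs5, CG7587, Sgs7 and Sgs8). By the Ensembl annotation of the BDGP6 assembly (dm6 coordinates, 1-based), Sgs1 is at chr2L:4937409-4941423 on the plus strand, with 1286 codons in 2 exons. Sgs3 (chr3L:11512221-11513402, plus, 307 codons), Sgs7 (chr3L:11509861-11510247, plus, 74 codons) and Sgs8 (chr3L:11508967-11509394, minus, 75 codons) lie close together, with 2 exons each. The gene CG33272 (chr3L:11510323-11510589, minus) lies between Sgs7 and Sgs3. CG7587 (chr3R:17594386-17595057, plus, 142 codons) lies just before its relative Sgs5 (chr3R:17595362-17596112, plus, 163 codons), both with 3 exons. Eig71Ee (chr3L:15654472-15656010, minus, 445 codons in 2 exons) is part of the 71E puff gene cluster. The single exon of Sgs4 (chrX:3250089-3251040, plus, 287 codons) lies inside the phosphodiesterase gene dnc, whose own level was 12.6 to 19.8 FPKM in the 9 libraries. Each of the 8 names was the single name of its locus, but how reads that match both members of a related pair were counted is not given in the sources used here. The locus deposited for Sgs4 was far wider than the annotated gene, at chrX:3176330-3348400, and covers all of dnc (chrX:3176440-3343767). What this means for the Sgs4 level was not tested.

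Glue RNA was among the most abundant RNA of these larvae. The 8 genes together held 7.42, 6.04 and 9.75% of the FPKM sum in wild types 1, 2 and 3, 5.18, 6.49 and 5.68% in heterozygotes 1, 2 and 3, and 0.384, 3.23 and 2.84% in homozygotes 1, 2 and 3. The means were 7.73 ± 1.88% (SD, n = 3), 5.78 ± 0.66% and 2.15 ± 1.54%. All homozygotes lay below all other libraries, the ranges of wild type and heterozygote overlapped, and homozygote 1 was far below the other homozygotes. Sgs7 alone held rank 1 to 3 among all loci in 8 libraries and rank 53 in homozygote 1. With homozygote 1 left out, the homozygote mean was 3.04%.

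**Figure D1:**
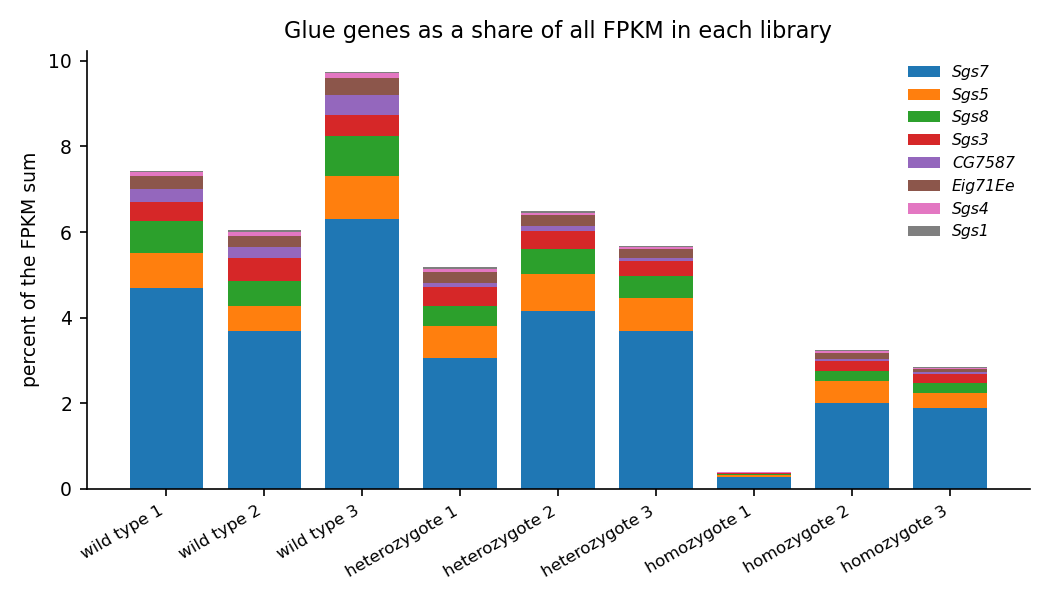
Share of the FPKM sum (percent, vertical axis) held by the 8 glue genes in each of the 9 libraries, stacked by gene. Sgs7 makes up most of every bar, and homozygote 1 holds 0.384% against 2.84 to 9.75% in the other 8 libraries.

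In per-length units the order of mean levels in the wild type was Sgs7 (42154 ± 9209 FPKM, SD, n = 3), Sgs5 (6864 ± 1437), Sgs8 (6499 ± 1152), Sgs3 (4391 ± 1103), CG7587 (2949 ± 783), Eig71Ee (2803 ± 554), Sgs4 (783 ± 198) and Sgs1 (296 ± 109.5). Sgs5 and Sgs8, Sgs3 and CG7587, and CG7587 and Eig71Ee were neighbours in this order whose libraries overlapped. Sgs7 stood above Sgs5, Sgs8 above Sgs3, Eig71Ee above Sgs4 and Sgs4 above Sgs1 without overlap.

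How glue RNA differed in larvae without working Atg6 was asked by comparing homozygote and wild type. All 8 glue genes had lower means in the homozygote, at 6.41% (CG7587) to 38.6% (Sgs1) of the wild type mean. CG7587 and Sgs8 fell past the threshold (limma, Benjamini-Hochberg adjusted p under 0.05 over all tested loci), 2 of 8 genes, where 9.67% of all tested loci were past it in that direction. All homozygote libraries lay below all wild types for 7 of the 8 genes, against 20.5% of all tested loci, and Sgs1 was the exception. The median log2 fold change of the 8 genes was −2.37, and that of all tested loci 0.01.

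Among the mucin-like genes, Sgs3 encodes a main glue mucin whose end resembles Sgs7 and Sgs8. It was at 3408, 5584 and 4181 FPKM in wild types 1, 2 and 3, 4817, 4042 and 3418 in heterozygotes, and 203, 1831 and 2094 in homozygotes. All 3 homozygotes were below the 6 other libraries, and wild type and heterozygote overlapped. The log2 fold change of homozygote against wild type was −2.22 (SE 0.81, limma adjusted p = 0.0786), not past the threshold. Sgs1, the longest of the 8 proteins, was at 191, 409 and 288 FPKM in wild type larvae, 577.5, 311 and 242 in heterozygotes, and 16.7, 110.2 and 216 in homozygotes. Homozygote 3 lay above wild type 1, so these groups overlapped, and the change was −1.91 (SE 0.85, limma adjusted p = 0.130).

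Sgs4, whose gene is on the X chromosome, was at 555, 892 and 902 FPKM in wild type larvae, 651, 505 and 423 in heterozygotes, and 23.1, 309 and 209 in homozygotes. Wild type and homozygote did not overlap, and the change was −2.72 (SE 0.85, limma adjusted p = 0.0541). Eig71Ee was at 2364, 2618 and 3426 FPKM in wild type larvae, 2900.1, 2568 and 1996 in heterozygotes, and 86.3, 1205 and 732 in homozygotes. It did not overlap between wild type and homozygote either, at −2.70 (SE 0.85, limma adjusted p = 0.0554).

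Of the short proteins, Sgs7 was at 35406, 38410.2 and 52645 FPKM in wild type larvae, 33680.2, 39750.1 and 34944 in heterozygotes, and 3035, 15612 and 18740.2 in homozygotes. The homozygotes were below all other libraries, with a change of −2.11 (SE 0.64, limma adjusted p = 0.0507). Its neighbour and relative Sgs8 was at 5649.8, 6038 and 7809.9 FPKM in wild type larvae, 5361, 5722 and 4765 in heterozygotes, and 288, 1935 and 2496 in homozygotes. Sgs8 fell by 2.52 on the log2 scale (SE 0.72, limma adjusted p = 0.0441). This call was lost without any one of the wild types or heterozygotes (adjusted p = 0.0616 to 0.115) and with only the compared genotypes fitted (0.107).

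Sgs5 was at 6183, 5895 and 8515 FPKM in wild type larvae, 8024, 8159 and 7374 in heterozygotes, and 438, 3959.9 and 3342 in homozygotes. The homozygotes were again below the other 6 libraries, at −1.91 (SE 0.75, limma adjusted p = 0.0955). CG7587, the gene beside it, was at 2228, 2838 and 3782 FPKM in wild type larvae, 963, 969.7 and 685 in heterozygotes, and 27.8, 237 and 303 in homozygotes. Here the 3 genotypes formed 3 separate ranges, with the heterozygotes between the others. CG7587 fell by 4.50 on the log2 scale in the homozygote (SE 0.80, limma adjusted p = 0.00974), and the call held in each of 19 alternative settings, with adjusted p up to 0.0487.

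**Figure D2:**
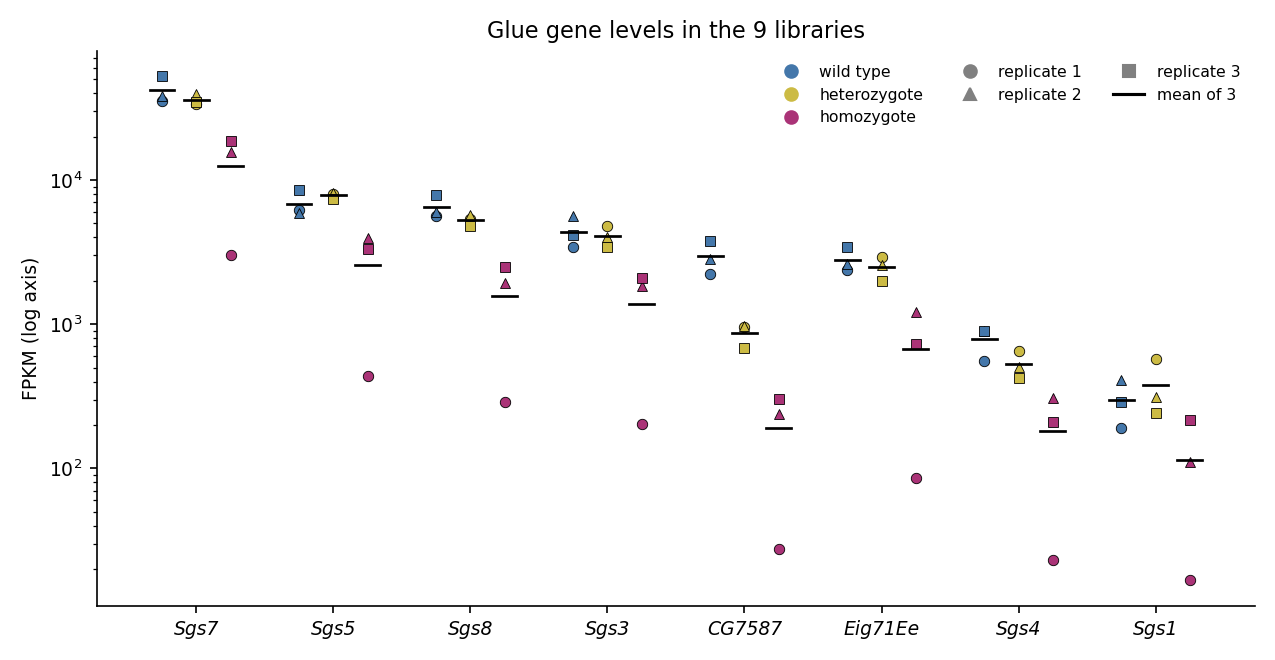
FPKM (log axis) of each glue gene in each library, coloured by genotype, with the replicate number as the shape and a bar at the mean of 3 libraries. Homozygote 1 is the lowest of the 9 libraries for all 8 genes, and only CG7587 has heterozygotes (685 to 969.7) clear of the wild types (2228 to 3782).

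Homozygote 1 was the lowest of the 9 libraries for each of the 8 glue genes, while 20.2% of all tested loci were lowest there. The mean of homozygotes 2 and 3 was 5.66 times (Sgs7) to 11.2 times (Sgs4 and Eig71Ee) the value of homozygote 1. Homozygotes 2 and 3 were nonetheless below the wild type mean for each gene, at 9.15% of it for CG7587, 33.0% for Sgs4, 34.1% for Sgs8, 34.6% for Eig71Ee, 40.7% for Sgs7, 44.7% for Sgs3, 53.2% for Sgs5 and 55.1% for Sgs1. The fold between homozygotes 2 and 3 and homozygote 1 was larger than that between the wild type and homozygotes 2 and 3 for all genes but CG7587, where they were 9.72 and 10.9.

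Without homozygote 1 the changes were smaller and the spread narrower. Then 7 of the 8 genes fell (limma, 8.94% of all tested loci fell in this fit), with a median log2 fold change of −1.41. CG7587 fell by 3.42 (SE 0.27, limma adjusted p = 0.000857) and Sgs8 fell by 1.55 (adjusted p = 0.00696). Sgs4 fell by 1.59 (adjusted p = 0.0189), Eig71Ee fell by 1.56 (0.0176), Sgs7 fell by 1.28 (0.0276), Sgs3 fell by 1.13 (0.0300) and Sgs5 fell by 0.90 (0.0352). Sgs1 was at −0.87 (adjusted p = 0.244). Leaving out homozygote 2 instead left 5 of 8 past the limma threshold, and leaving out any one wild type or heterozygote left CG7587 as the single call.

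**Figure D3:**
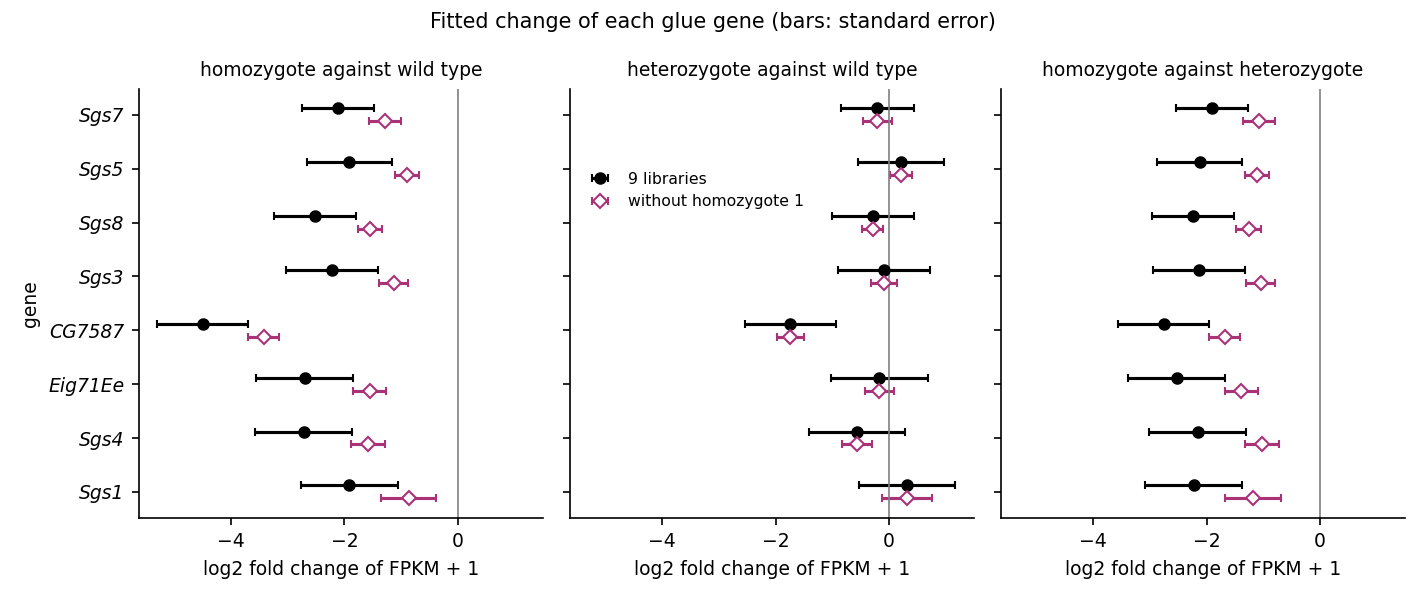
Fitted log2 fold change of FPKM + 1 (horizontal axis) of each glue gene in the 3 comparisons, with all 9 libraries (filled circles) and without homozygote 1 (open diamonds); bars are standard errors. All homozygote values are negative, they lie nearer to 0 with narrower bars without homozygote 1, and CG7587 is farthest from 0 in each comparison.

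Whether 1 mutant copy goes with a change was asked by comparing heterozygote and wild type. In limma 0 of the 8 glue genes passed the threshold and 0 had an unadjusted p under 0.05, where 0.211% of all tested loci passed, and 2.32% were lower and 3.39% higher at that unadjusted p. The median log2 fold change was −0.19. CG7587 had the lowest value (−1.74, SE 0.80, limma adjusted p = 0.835), at 29.6% of the wild type mean, and was the single gene of the 8 whose heterozygotes all lay below all wild types (6.18% of all tested loci did so). It passed in 0 of 19 alternative settings, where its limma adjusted p ran from 0.0519 (library weights) to 0.999975 (leaving out 1 library). Without homozygote 1 its adjusted p was 0.0682, and with only these 2 genotypes fitted 0.114. Sgs4 was at −0.56 and Sgs8 at −0.29 (SE 0.85 and 0.72). Sgs7, Eig71Ee, Sgs3, Sgs5 and Sgs1 were between −0.20 and 0.32, with standard errors of 0.64 to 0.85, so changes of that size were not detectable here.

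Homozygote and heterozygote were compared as well, with the same homozygote libraries as above. In limma 0 of 8 genes passed the threshold (7.70% of all tested loci did), while 8 of 8 were lower at an unadjusted p under 0.05 (11.4% of all tested loci) and 8 of 8 did not overlap (15.6%). The changes ran from −1.91 (Sgs7) to −2.76 (CG7587, limma adjusted p = 0.0843), with a median of −2.19. Without homozygote 1, CG7587 (adjusted p = 0.0164), Sgs8 (0.0204), Sgs5 (0.0330) and Eig71Ee (0.0386) fell, 4 of 8 where 1.26% of all tested loci fell, with a median of −1.15.

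Within the glue, the share of each gene varied less than the total did. Sgs7 made up 59.1 to 73.7% of the glue sum over the 9 libraries, Sgs5 9.40 to 15.7% and Sgs8 7.0 to 10.1%. CG7587 was the most variable of the 8, over a 6.88-fold range, at 4.38 ± 0.35% (SD, n = 3) of the glue sum in the wild type, 1.51 ± 0.21% in the heterozygote and 0.897 ± 0.20% in the homozygote. Against the median of the other 7 glue genes, with the wild type mean set to 0 on the log2 scale, it was at −0.03, −0.40 and 0.43 in wild type larvae, −1.74, −1.48 and −1.74 in heterozygotes, and −2.29, −2.37 and −2.21 in homozygotes. On this scale homozygote 1 lay beside homozygotes 2 and 3.

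The ratio of CG7587 to its neighbour Sgs5 was taken within each library. On the log2 scale it was −1.47, −1.05 and −1.17 in wild type larvae (mean −1.23 ± 0.22, SD), −3.06, −3.07 and −3.43 in heterozygotes (−3.19 ± 0.21) and −3.98, −4.06 and −3.46 in homozygotes (−3.84 ± 0.32). No 2 genotypes overlapped. The differences were −2.60 for homozygote minus wild type, −1.95 for heterozygote minus wild type and −0.65 for homozygote minus heterozygote. Each had p = 0.1 in a two-sided exact permutation test, the smallest that 3 against 3 libraries allow (adjusted p = 0.12 over 6 comparisons). The glue share of the FPKM sum was also lower from wild type to heterozygote to homozygote in the means, and its part in this ratio was not tested.

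For the other neighbouring pair, Sgs7 was 6.27 to 10.5 times Sgs8 in FPKM over the 9 libraries, where CG7587 was 0.0598 to 0.481 times Sgs5. Its log2 ratio was 2.65, 2.67 and 2.75 in wild type larvae, 2.65, 2.80 and 2.87 in heterozygotes, and 3.40, 3.01 and 2.91 in homozygotes. The homozygotes were above all other libraries, by 0.42 over the wild type and 0.33 over the heterozygote (exact permutation p = 0.1 and adjusted p = 0.12 for each), and the heterozygotes overlapped the wild types (difference 0.08, p = 0.3). Without homozygote 1, the highest, the homozygote difference from the wild type was 0.27.

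**Figure D4:**
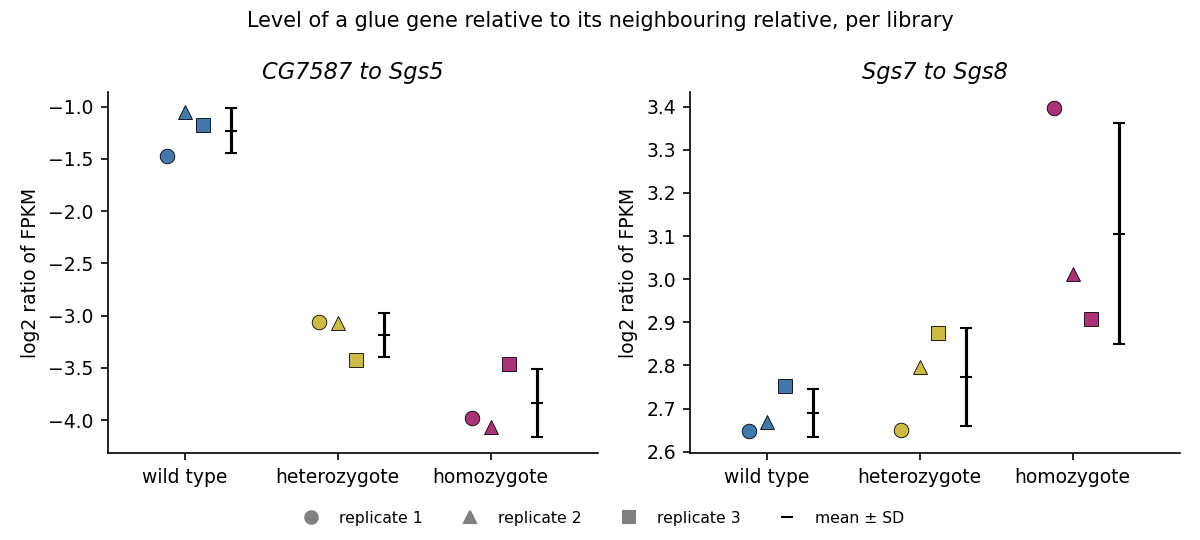
Log2 ratio of FPKM of CG7587 to Sgs5 (left) and of Sgs7 to Sgs8 (right) in each library by genotype, with mean ± SD of 3 libraries. The left ratio has separate ranges in the 3 genotypes, from −1.05 in a wild type to −4.06 in a homozygote, and the right axis spans under 1 log2 unit.

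Genes beside the glue genes did not share this pattern as a group. Of 34 loci within 10 kb of a glue gene 20 were tested, and in the homozygote 3 rose (betaggt-I, jet and ng3) and 2 fell against the wild type (chrb and the merged locus CG11714/Fuca/Mob2), beside 12.3% and 9.67% of all tested loci. The calls of betaggt-I (0.68, limma adjusted p = 0.00193) and chrb (−0.74, adjusted p = 0.00833) held without each library in turn. That of jet (0.56, limma adjusted p = 0.0199) was lost without wild type 1 or 3 (up to 0.0664), and that of the merged locus (−0.35, adjusted p = 0.0402) held only without homozygote 2 (up to 0.124). The gene CG7606, 424 bases from Sgs5, came nearest to the glue genes in level and order. It was at 1943, 2611 and 2669.9 FPKM in wild type larvae, 1551, 1325 and 879 in heterozygotes, and 137, 1133 and 994 in homozygotes, which overlapped the heterozygotes. As for CG7587, 1479 bases away, all heterozygotes lay below all wild types, which 6.18% of all tested loci did. The change of CG7606 was −0.97 in the heterozygote (SE 0.74, limma adjusted p = 0.835). In the homozygote it was −2.15 (SE 0.74, limma adjusted p = 0.0686).

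RNA of the listed salivary gland regulators was found in every library, but RNA of whole larvae does not show which tissue it came from. The factor hkb, at 0.105 to 0.410 FPKM, was too low to be tested. The list of regulators holds fkh, sage, CrebA and other factors that build the gland or switch on its secretion genes, and EcR, usp and br of the ecdysone response. In limma 0 of 10 tested genes passed in the homozygote against the wild type (4 lower at an unadjusted p under 0.05, as were 21.6% of all tested loci; median −0.38), 0 of 10 in the heterozygote and 0 of 10 between the mutants (0 at an unadjusted p under 0.05 in both). Without homozygote 1, in which 8 of the 10 were lowest (20.2% of all tested loci were), 1 of 10 fell against the wild type, sage, where 8.94% of all tested loci fell. The forkhead factor fkh was at 8.51 to 9.91 FPKM in wild type larvae, 7.82 to 9.92 in heterozygotes and 6.51 to 8.51 in homozygotes. The bHLH factor sage was at 44.8, 64.6 and 60.3 FPKM in wild type larvae, 53.6, 44.6 and 36.8 in heterozygotes, and 9.23, 33.2 and 34.5 in homozygotes. All homozygotes were below the other libraries for sage, which was at −1.30 (SE 0.45, limma adjusted p = 0.0718). The most abundant locus of the list merges usp with Actn and was at 0.56 (adjusted p = 0.314). The salivary gland prolyl hydroxylases PH4alphaSG1 and PH4alphaSG2 did not pass in any of the 3 comparisons (0 at an unadjusted p under 0.05). Both were highest in homozygote 1, at 5.85 and 24.7 FPKM, where 24.5% of all tested loci were highest.

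Genes that the salivary gland uses before glue were compared as well. The pre-glue genes ng1, ng2 and ng3 and Pig1 lie near Sgs4 and are active in the younger gland, and ng4 was listed at 0 in each library. Of the 4 tested, 1 rose in the homozygote, where 12.3% of all tested loci rose. This was ng3, from 250, 482 and 291 FPKM in wild type larvae and 998, 561 and 636 in heterozygotes to 2112, 520.2 and 1145. The change was 1.72 (SE 0.51, limma adjusted p = 0.0471), was not past the threshold without homozygote 1 (1.23, adjusted p = 0.0874), and was also lost without wild type 1 or 3, any heterozygote or homozygote 3 (up to 0.130). For ng1 the values were 7.64, 29.4 and 9.40 FPKM in wild type larvae, 68.3, 34.6 and 33.1 in heterozygotes, and 133, 23.4 and 51.2 in homozygotes (limma adjusted p = 0.0713). Homozygote 1, the lowest library for all 8 glue genes, was thus the highest for ng1 and ng3, as it was for 24.5% of all tested loci. The heterozygotes lay above the wild types for ng1 and ng3, and the share of all tested loci that did so was not counted. For ng2 they lay below the wild types, as for 6.18% of all tested loci, and Pig1 overlapped between all genotypes. In the homozygote ng2 was at −0.73 (limma adjusted p = 0.395) and Pig1 at −0.12 (0.870). In the heterozygote 0 of the 4 passed (1 higher at an unadjusted p under 0.05, as were 3.39% of all tested loci).

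The ecdysone response list covers the receptor, the early and late factors it induces and the Imp genes of the imaginal discs. Of 21 tested loci 1 rose and 2 fell in the homozygote against the wild type (median −0.47), where 12.3% of all tested loci rose and 9.67% fell. Of the 21, 0 passed in the heterozygote (median −0.18), and 1 was lower at an unadjusted p under 0.05, as were 2.32% of all tested loci. Between the mutants 1 rose and 1 fell, where 7.70% of all tested loci passed in either direction. The locus that rose in both comparisons, ImpL1, was tested only because its 3 homozygotes reached 1 FPKM. ImpE3, an ecdysone-induced disc gene, was at 24.3, 10.03 and 16.3 FPKM in wild type larvae, 8.37, 8.29 and 8.05 in heterozygotes, and 1.04, 3.81 and 2.58 in homozygotes, without overlap. It fell by 2.37 in the homozygote (SE 0.36, limma adjusted p = 0.00554; 0.0109 without homozygote 1). Between the mutants it fell by 1.495 (limma adjusted p = 0.0478), a call lost without homozygote 1 (0.0856), homozygote 3, wild type 3 or any heterozygote (up to 0.157). ImpE2 was at 155, 31.7 and 119.5 FPKM in wild type larvae, 25.4, 55.4 and 39.2 in heterozygotes, and 0.720, 35.6 and 3.93 in homozygotes. It fell by 3.65 (SE 1.08, limma adjusted p = 0.0472), a call lost without homozygote 1 (0.0934), homozygote 3, wild type 1 or 3, or any heterozygote (up to 0.134). ImpL1, another Imp gene, was at 0.296 to 0.855 FPKM in the 6 other libraries and 1.59 to 2.31 in homozygotes. Since the filter let it in through the homozygotes alone, its calls rest on that selection. Its change was 0.90 against the wild type (limma adjusted p = 0.0163; 0.0540 without wild type 3) and 0.76 between the mutants (0.0475, lost without wild type 3 or any heterozygote, up to 0.148), and it was too low to be tested without homozygote 1.

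Stage-linked genes set libraries of 1 genotype apart. Of the 21 ecdysone response loci 10 were highest in wild type 1 and 14 were lowest in homozygote 1, where 23.6% and 20.2% of all tested loci were. The early regulator br was at 156, 89.0 and 165 FPKM in wild type larvae, 99.3, 100.8 and 81.0 in heterozygotes, and 29.3, 122 and 47.9 in homozygotes. Hr4, a late factor of the cascade, was at 6.19 FPKM in wild type 1 and at most 1.49 elsewhere. Among the 71E puff genes, which follow glue in the gland, Eig71Ea was tested alone of 10, at 4.93 to 10.04 FPKM in wild type larvae, 3.52 to 5.73 in heterozygotes and 0.148 to 4.27 in homozygotes (−1.44, SE 0.53, limma adjusted p = 0.0807). The part of larval timing in the glue result was not tested, and stage and genotype cannot be told apart where they move together.

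**Figure D5:**
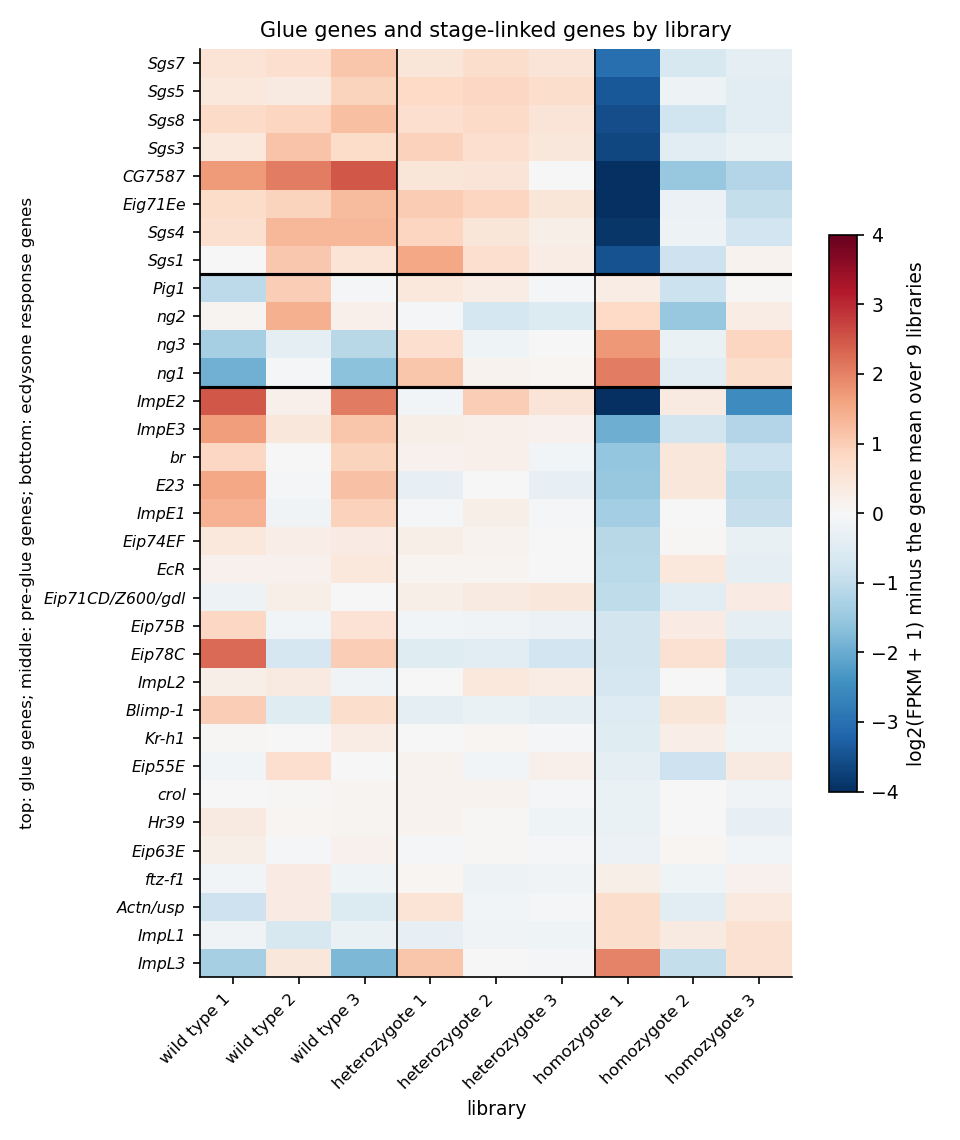
Log2(FPKM + 1) of the 8 glue genes, the 4 tested pre-glue genes and the 21 tested ecdysone response loci (rows) in the 9 libraries (columns), each minus the gene's mean over the libraries; colours end at 4 log2 units. The glue rows are lowest in homozygote 1 (median −3.58), where ng1 and ng3 are highest and 14 of the 21 ecdysone response loci are lowest. Of all tested loci 24.5% are highest and 20.2% lowest in that library.

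The glue granule machinery was asked about as well. Of 20 tested genes for granule formation and release 5 rose and 0 fell in the homozygote against the wild type (median 0.29), where 12.3% of all tested loci rose. With homozygote 1 left out, 6 rose and 0 fell, in a fit where 2142 of 10829 tested loci passed in either direction. Snap24, the membrane fusion protein of glue granule release, was at 21.8, 27.2 and 25.2 FPKM in wild type larvae, 27.2, 25.6 and 23.6 in heterozygotes, and 35.6, 37.8 and 36.9 in homozygotes. It rose by 0.56 (SE 0.10, limma adjusted p = 0.00902), a call that held without each library in turn. Rab11, a GTPase of recycling endosomes, rose by 0.48 (limma adjusted p = 0.0111; 0.0539 without wild type 3), and Rho1, which drives the actomyosin coat of fusing granules, by 0.46 (adjusted p = 0.0204; up to 0.0697 without wild type 1, wild type 3 or homozygote 3). Between the mutants 2 rose (6.27% of all tested loci did), and limma called 0 in the heterozygote (0 also at an unadjusted p under 0.05).

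Mucins carry sugar chains that a set of transferases puts on. Of 12 tested genes of the O-glycosylation list 1 rose and 1 fell in the homozygote (median 0.04), where 12.3% of all tested loci rose and 9.67% fell. The transferase pgant3 rose by 0.40 (limma adjusted p = 0.0425), and pgant8 fell by 0.42 (adjusted p = 0.0417). Both calls were lost in most fits without 1 library (up to 0.112 and 0.118), among them those without wild type 2, wild type 3, any heterozygote or homozygote 3, and for pgant3 without wild type 1 and for pgant8 without homozygote 2. In the heterozygote limma called 0 of 12 (0 also at an unadjusted p under 0.05), and between the mutants 0. Without adjustment 2 of 12 were higher and 1 was lower between the mutants at p under 0.05. Of all tested loci 11.4% were lower in this way, and the share that were higher was not counted.

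Markers of other tissues differed between libraries too. Of 12 muscle markers limma called 0 in the homozygote (median 0.85). At an unadjusted p under 0.05 only 1 of the 12 was higher, and the share of all tested loci higher in this way was not counted. The 12 summed to 7716 to 19846 FPKM in wild type larvae, 14977 to 23072.5 in heterozygotes and 10983 to 30698 in homozygotes. All 12 were lowest in wild type 1 (16.6% of all tested loci were) and 10 of 12 were highest in homozygote 1 (24.5%). Of 16 gut markers 2 rose in the homozygote against the wild type (12.3% of all tested loci; 0 of 16 without homozygote 1), the protease Jon65Aii (1.20, limma adjusted p = 0.0285) and the amylase Amy-d (1.92, adjusted p = 0.0429). Leaving out homozygote 1 gave adjusted p = 0.0519 and 0.0662, and wild type 1, wild type 3, heterozygote 2 or 3 or homozygote 3 also ended both calls (up to 0.0970 and 0.126), as for Amy-d did heterozygote 1 or homozygote 2. Between the mutants 2 of 16 rose (6.27% of all tested loci), Amy-p, also an amylase (2.698, limma adjusted p = 0.0112; 0.0312 without homozygote 1), and Amy-d (3.13, adjusted p = 0.0136; 0.0347 without homozygote 1). The first was lost without heterozygote 2 or 3 or homozygote 3 (up to 0.0559), and the second without heterozygote 1 or 2 or homozygote 3 (up to 0.0682). In the heterozygote limma called 0 of 16 (without adjustment 4 were higher and 1 was lower at p under 0.05, as were 3.39% and 2.32% of all tested loci). The gut sum was 32353 to 59352 FPKM in wild type larvae, 51949.7 to 80270.5 in heterozygotes and 29584 to 53593 in homozygotes. None of the muscle or gut markers was at 0 in all libraries, and the part of tissue makeup in the glue result was not tested.

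The fat body list holds Fbp1, the locus with the highest correlation to the glue mean over all 9 libraries. Fbp1, the fat body receptor for storage proteins and itself an ecdysone target, was at 6548, 7292 and 7758 FPKM in wild type larvae, 5448, 5812 and 6885.5 in heterozygotes, and 25.0, 871 and 1608 in homozygotes. It fell by 4.44 (SE 1.33, limma adjusted p = 0.0496), which was lost without any one wild type or heterozygote (up to 0.117), and by 2.60 without homozygote 1 (adjusted p = 0.00297). The other 5 tested fat body markers did not pass, so 1 of 6 fell, where 9.67% of all tested loci fell (8.94% without homozygote 1). In limma 0 of the 6 passed in the heterozygote and 0 between the mutants. With homozygote 1 left out, 1 of 6 fell between the mutants, where 1.26% of all tested loci fell. The list's sum was 29263 to 51552 FPKM in wild type larvae, 38593 to 53094 in heterozygotes and 13119.5 to 34790.5 in homozygotes. The storage protein gene Lsp1beta was listed at 0 in heterozygote 3 and homozygote 1 and at 3299 to 14821 FPKM in the other 7 libraries, and Lsp1gamma at 0 in all libraries. The sums of heterozygote 3 (38593, the lowest heterozygote) and homozygote 1 (23929) thus lack Lsp1beta.

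Over the 9 libraries, log2(FPKM + 1) of Fbp1 had the highest Pearson correlation with the mean of the 8 glue genes among the other loci (r = 0.988; 0.931 without homozygote 1). The tetraspanin Tsp42Ep (0.987), sage (0.983), CG43861/CR44908 (0.982), CG42500 (0.981), CG31698 (0.978), the chromatin remodeller brm (0.976), Tsp42Ej/Tsp42Ek (0.976), the sarcomere gene sals (0.973) and CG30438 (0.973) followed. The 8 glue genes had r of 0.947 (Sgs1) to 0.996 (Sgs8), and the median over all tested loci was 0.03. These are descriptions over libraries of 3 genotypes with 1 distant library, and without it r was 0.864 (sals) to 0.973 (CG43861/CR44908) for the 10 loci, and CG43861/CR44908 and CG30438 (0.943) were then above Fbp1. CG42500 reached the level of the glue genes, at 7717, 9769.9 and 10155.5 FPKM in wild type larvae, 4529, 5044 and 6326 in heterozygotes, and 134, 1390.2 and 2376 in homozygotes. Like CG7587, CG42500 had 3 separate ranges in the 3 genotypes. So did CG31698, at 299 to 580 FPKM in wild type larvae, 161 to 287 in heterozygotes and 6.81 to 149 in homozygotes. The share of all tested loci with 3 separate ranges was not counted.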

How the data were processed

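RNA of whole larvae was sequenced in 9 libraries. Per the submitters' processing notes, HISAT2 2.1.0, Cufflinks 2.2.1 and limma were used with the genome build dm6; the sources used here give neither their roles nor the annotation. The deposited values are FPKM, as made by the authors, without counts. The table's 50244 lines repeated each locus 3 times per gene name; 1 line per locus was kept (15809 loci, of which 818 carry several names and 1278 are at 0 throughout).

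Loci that reached an FPKM of 1 in 3 or more libraries were fitted on log2(FPKM + 1) by limma 3.58.1 in R 4.3.3, with trend and all 3 genotypes together. Adjustment was by Benjamini-Hochberg over all 10887 loci fitted, and adjusted p under 0.05 counted as a call. The steps were tested on simulated data. Ratios of neighbouring genes were compared by two-sided exact permutation tests over all arrangements of the libraries. Gene positions were taken by symbol from Ensembl's BDGP6 annotation, and tables were made in Python 3.11.15.

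The members and gene lists were chosen with earlier results of these data known. All 8 members are named, with up to 3 genes per list, direction and comparison or else the most abundant one, the 10 loci most like the glue mean and neighbours within 10 kb. Genes shown in addition, as examples of a list, were chosen after their values were seen. Library numbers come from the labels. Same-numbered libraries of different genotypes did not deviate together, so no pairing was used. Alternatives were other pseudocounts, filters and scalings, library weights, a replicate block, fits of 2 genotypes and leaving out each library.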

Additional observations from a re-analysis of the deposited data

How the results depend on the processing

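The direction of all 8 glue genes in the homozygote held in each of the 152 alternative values against the wild type and in the 152 against the heterozygote. These values are 8 genes in 19 refits of the same libraries, so they are not independent support for the direction. Against the wild type the glue genes past the limma threshold were 2 with all libraries (2396 of all loci). They were 1 with no filter (1913 loci), 1 after rescaling to the FPKM sum of the other loci (937), 1 with the replicate block (966) and 1 with only 2 genotypes fitted (693). Leaving out each library in turn gave 1 to 7 (726 to 3088 loci). Library weights gave 7, where 6839 of the 10887 tested loci passed, so this count is not particular to the glue genes. These weights were estimated gene by gene, after another method did not converge. Against the heterozygote the glue genes past it were 0, but 6 with library weights (5436 loci) and 0 to 4 without each library (303 to 815). In the heterozygote they were 0 throughout, without each library too (0 to 0), and these values changed sign: Sgs1 (−0.039 without heterozygote 1, and −0.039 to 0.59 without each library), Sgs3 (0.10 without wild type 2 and 0.037 without heterozygote 3, and −0.25 to 0.10 without each library) and Sgs5 (−0.019 after rescaling and −0.011 with library weights). With quantile normalization the homozygote calls were CG7587 and Sgs4, not Sgs8 (adjusted p = 0.05002). The causes were not tested.

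Loci past the threshold in the homozygote against the wild type were 2396, but 937 after rescaling, 966 with the replicate block, 6839 with library weights, 693 with 2 genotypes and 726 to 3088 without each library. Between the mutants they were 838, 409, 437, 5436, 546 and 303 to 815 in the same order. In the heterozygote they were 23, but 9 with the block, 485 with library weights, 8 with 2 genotypes and 9 to 27 without each library. Same-numbered libraries had correlations of deviations from −0.65 to 0.33, and those with different numbers from −0.48 to 0.67. This gave no sign of pairing but cannot exclude that same-numbered libraries were handled together, which the labels do not say.

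Without each library the mean glue share ran from 6.73 to 8.58% in the wild type, 5.43 to 6.08% in the heterozygote and 1.61 to 3.04% in the homozygote. The CG7587 to Sgs5 differences ran from −2.79 to −2.49 (homozygote minus wild type), −2.07 to −1.83 (heterozygote minus wild type) and −0.84 to −0.53 (homozygote minus heterozygote), and those of Sgs7 to Sgs8 from 0.27 to 0.51, 0.03 to 0.15 and 0.19 to 0.43. Absolute depth is unknown, which limits statements on genes near 0. A permutation test of the 3 genotypes together was added after the ratios of neighbouring genes were seen to separate, so it is no independent support. It gave exact p = 0.00357 for CG7587 to Sgs5, the smallest it can give, and exact p = 0.0143 for Sgs7 to Sgs8 (adjusted 0.00714 and 0.0143 over 2 ratios).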
